A study of Mus musculus with 12 samples.

Results

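The mitochondrial chromosome of the mouse carried 37 of the 41079 genes in the count table, and all 37 are described here. They were taken by chromosome alone and fell into 13 protein genes, 2 ribosomal RNAs (rRNAs) and 22 transfer RNAs (tRNAs). All 37 passed the filter on low counts, as did 20771 genes in all. RNA was measured by sequencing in 12 whole mouse embryos, 4 Mfsd12 knockout, 4 heterozygous and 4 wild-type. Mfsd12 encodes a membrane protein through which cysteine enters lysosomes and melanosomes. All embryos came from timed matings between Mfsd12 heterozygotes, were collected from day 10.0 to day 11.0 after fertilization, and gave 325 ng of RNA each to a strand-marking kit that selects poly(A) RNA, with ERCC spike-ins. Stage was refined computationally per the labels, which give no stage, litter or sex for any single embryo. Each embryo is a separate animal, so the p-values below measure the spread between embryos. The main tests treat the embryos as independent, which the labels cannot show for embryos that may share a litter.

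Mitochondrial DNA is a small circle that is transcribed from both strands into long precursors. The precursors are cut mostly at the tRNAs that lie between the other genes, which frees the messenger RNAs and the rRNAs. Most of the messenger RNAs carry poly(A) tails, the rRNAs carry short tails, and mature tRNAs end in CCA without such a tail. A poly(A) kit therefore captures the classes unequally. All of the proteins encoded are subunits of the respiratory chain or of ATP synthase, whose other subunits are made from nuclear genes. Mouse embryos that lack Tfam, the protein that packages this DNA and starts its transcription, die in mid-gestation.

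Levels are in reads per 1000000 counted reads (RPM) unless another scale is named. Counted reads numbered 53132928 to 67977877 per embryo. In such bulk RNA, fewer cells of a type and less RNA per cell cannot be told apart. Mfsd12 itself was at 3.32, 2.72, 3.73 and 2.22 RPM in the knockout embryos, at 9.27, 2.27, 6.11 and 5.89 RPM in the heterozygous embryos, and at 11.6, 16.7, 9.98 and 9.87 RPM in the wild-type embryos. The library labelled heterozygous 2 was therefore inside the knockout range, against its label, and the medians of each comparison with the heterozygous embryos are given with and without it. Markers of blood, heart, yolk sac endoderm, hepatoblasts, macrophages and neurons were all detected in each genotype. The summed level of the 11 erythroid markers was 5289 to 19408 RPM in knockout embryos, 12947 to 50687 RPM in heterozygous embryos and 18696 to 83952 RPM in wild-type embryos. The summed level of the 4 neuronal markers was 62.2 to 437 RPM in knockout embryos, 273 to 771 RPM in heterozygous embryos and 414 to 691 RPM in wild-type embryos. The summed level of the 5 macrophage markers was 5.33 to 51.4 RPM in knockout embryos, 29.5 to 80.0 RPM in heterozygous embryos and 32.2 to 80.2 RPM in wild-type embryos. All of these erythroid, neuronal and macrophage markers had an estimated log2 fold change below 0 in knockout against wild-type embryos. The 6 yolk sac endoderm markers all had one above 0, and their summed level was 76.9, 88.2, 4282 and 91.6 RPM in knockout embryos, 74.4 to 682 RPM in heterozygous embryos and 61.4 to 138 RPM in wild-type embryos, so knockout 3 alone of the knockout embryos was above the wild-type range. The part of any of these in the mitochondrial levels was not tested.

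The sequences that the results below turn on are shown here, 5′ to 3′ on the strand of the gene, with the anticodon in capitals. They come from the GENCODE vM21 transcripts of GRCm38, in which 37 of the 37 genes have the same start, end and strand as in the count table. TrnA (chrM:5018-5086), TrnN (chrM:5089-5159), TrnC (chrM:5192-5257) and TrnY (chrM:5260-5326), the tRNAs for alanine, asparagine, cysteine and tyrosine, are neighbours on the minus strand. They are shown because their levels moved as a block. COX1 on one side did not follow it, and TrnW on the other side followed it in part (Pearson r of 0.62 to 0.69 over the 12 embryos).
TrnA: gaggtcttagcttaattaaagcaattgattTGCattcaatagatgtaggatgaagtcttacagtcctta
TrnN: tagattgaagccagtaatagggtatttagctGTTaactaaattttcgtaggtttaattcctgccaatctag
TrnC: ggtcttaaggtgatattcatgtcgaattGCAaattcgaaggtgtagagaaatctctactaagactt
TrnY: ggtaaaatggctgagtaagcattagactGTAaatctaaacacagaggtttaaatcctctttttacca

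TrnS1 (chrM:6870-6938, minus strand), a serine tRNA, is shown because it had the highest median level of the 22 tRNAs and because its last 3 bases overlap the end of COX1 on the opposite strand. TrnL1 (chrM:2676-2750, plus strand), a leucine tRNA between the 16S rRNA and ND1, is shown because it all but vanished in 1 library. TrnT (chrM:15289-15355, plus strand), the threonine tRNA, is shown because it was the 1 tRNA that any of the tests called between knockout and wild-type embryos.
TrnS1: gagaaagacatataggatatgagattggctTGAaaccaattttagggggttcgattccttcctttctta
TrnL1: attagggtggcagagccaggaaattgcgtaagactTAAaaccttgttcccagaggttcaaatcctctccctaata
TrnT: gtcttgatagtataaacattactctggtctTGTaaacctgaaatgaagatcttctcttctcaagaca

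ATP8 (chrM:7766-7969, plus strand) and ATP6 encode subunits of ATP synthase in overlapping reading frames. The 43 bases that both genes share are in capitals below, since a read inside them was divided between the genes by the counting.
ATP8: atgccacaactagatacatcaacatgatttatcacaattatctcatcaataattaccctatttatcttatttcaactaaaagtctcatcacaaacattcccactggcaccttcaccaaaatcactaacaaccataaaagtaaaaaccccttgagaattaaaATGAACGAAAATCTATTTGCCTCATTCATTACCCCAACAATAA

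The protein genes were the bulk of the mitochondrial signal, and their share of all counted reads was higher on average in knockout embryos, with overlap. They held 2.41, 2.13, 2.96 and 2.69% of reads in knockout embryos, 2.603, 1.48, 2.40 and 2.45% in heterozygous embryos, and 0.916, 2.08, 2.71 and 1.93% in wild-type embryos. The means were 2.55 ± 0.358% in knockout, 2.23 ± 0.511% in heterozygous and 1.91 ± 0.745% in wild-type embryos (SD, n = 4 each). Wild-type 1 was far below every other embryo, and wild-type 3 was above 3 of the 4 knockout embryos.

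The rRNA share was higher in every knockout embryo than in every wild-type embryo. It was 0.149, 0.0752, 0.102 and 0.382% in knockout embryos, 0.0841, 0.0321, 0.05004 and 0.0617% in heterozygous embryos, and 0.0479, 0.0649, 0.0493 and 0.0655% in wild-type embryos. Heterozygous 1 was above knockout 2, so those 2 genotypes overlapped.

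The tRNA share was the smallest of the 3. It was 0.0178, 0.0188, 0.0336 and 0.0348% in knockout embryos, 0.0332, 0.00937, 0.0132 and 0.0194% in heterozygous embryos, and 0.0166, 0.0211, 0.0164 and 0.0147% in wild-type embryos. Knockout 3, knockout 4 and heterozygous 1 stood above the other 9 embryos, and wild-type 2 was above the other 2 knockout embryos. The precision was set by the embryos and not by counting: the 95% Wilson interval that was widest relative to its value, for the tRNA share of the library labelled heterozygous 2, ran from 0.00911 to 0.00963%, and such intervals cover counting error only. These shares are sums over chosen genes and carry no test.

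**Figure D1:**
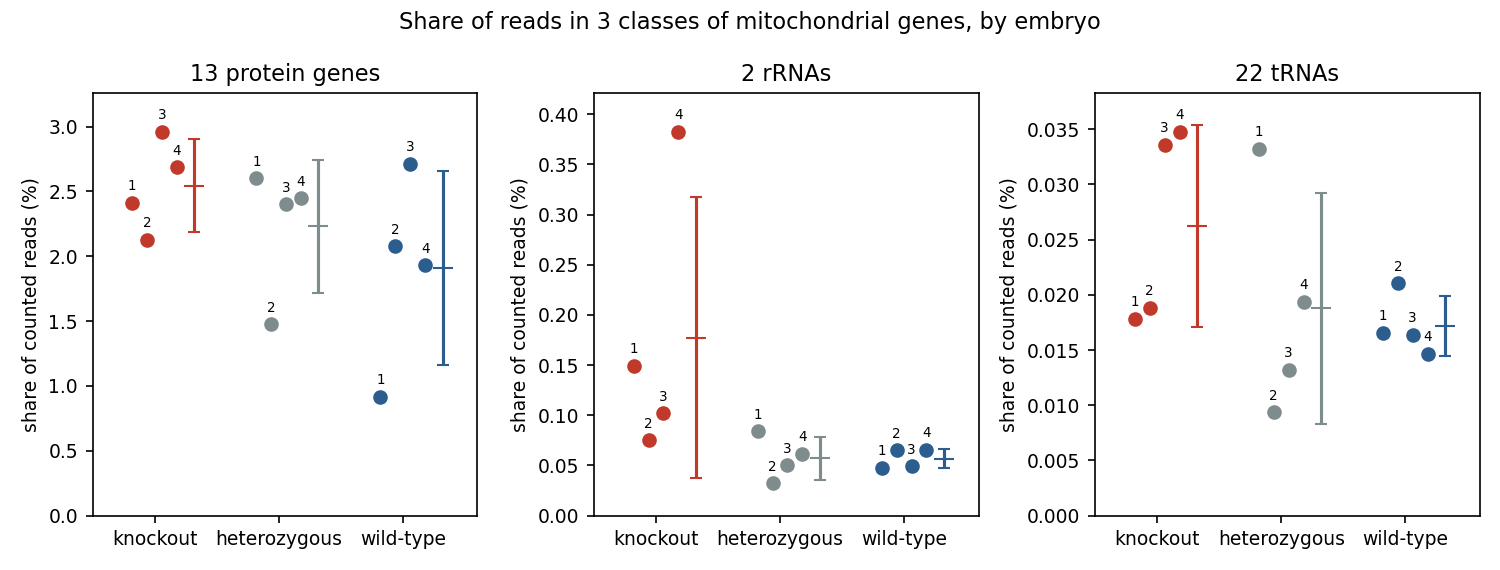
Share of counted reads (%, linear axes from 0) in the 13 protein genes, the 2 rRNAs and the 22 tRNAs; each point is 1 embryo with its number, and the bars are mean and SD of 4 embryos. Wild-type 1 is lowest for the protein genes at 0.916%, knockout 4 is highest for the rRNAs at 0.382%, and the knockout and wild-type points of the rRNA panel do not overlap.

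In knockout against wild-type embryos, all 37 genes had an estimated fold change above 0, against 51.3% of all 20771 genes tested, and no single gene passed the adjusted threshold. The edgeR quasi-likelihood test with Benjamini-Hochberg adjustment over all genes called 0 of the 37 at 0.05, and 0% of all genes. At an unadjusted p under 0.05, 12 of the 37 were higher (2 rRNAs and 10 tRNAs), against 4.25% of all genes that were higher at that level. DESeq2 called 3 of the 37, all higher (mt-Rnr2, TrnT and mt-Rnr1), against 0.644% of its genes called, and limma voom, with a weight for each embryo, called 0. On the log2 scale the median edgeR fold change was 0.49 for the protein genes, 1.07 for the tRNAs and 1.28 and 1.92 for the rRNAs, against 0.01 for all genes. Genes cut from shared precursors do not vary independently, so the count of 37 is not 37 separate results.

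On the CPM scale, which is RPM with library totals adjusted by TMM factors, every knockout embryo was above every wild-type embryo for 4 of the 37 genes, mt-Rnr1, mt-Rnr2, TrnF and TrnT, against 1.6% of all genes. For TrnF, the phenylalanine tRNA at the start of the heavy-strand precursor, that gap was small: its lowest knockout value was 0.914 CPM and its highest wild-type value 0.898 CPM, and on the RPM scale the groups overlapped. Every knockout embryo was below every wild-type embryo for 0 of the 37, against 1.82% of all genes.

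**Figure D2:**
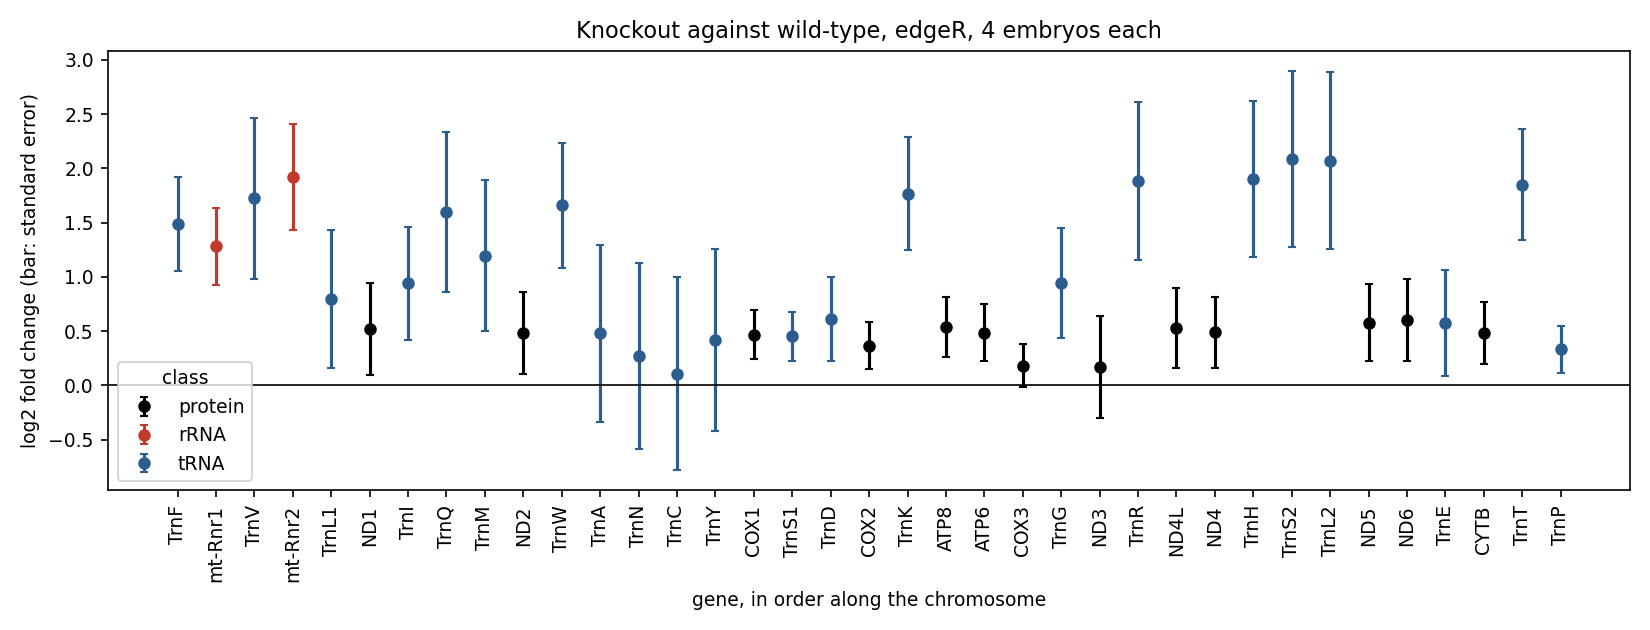
Log2 fold change of knockout over wild-type embryos (edgeR, 4 embryos each) for the 37 genes in their order along the chromosome, black for protein genes, red for rRNAs and blue for tRNAs, with bars for the standard error. All points lie above 0; the protein genes lie between 0.17 and 0.60, mt-Rnr2 is at 1.92 and TrnS2 at 2.09.

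The 7 complex I genes encode the membrane core of NADH dehydrogenase. ND1 was at 2655, 2955, 3335 and 3431 RPM in knockout embryos, at 2785, 553, 3193 and 2859.8 RPM in heterozygous embryos, and at 868, 2221, 3322 and 2511 RPM in wild-type embryos. The lowest were the library labelled heterozygous 2 and wild-type 1, and the genotypes overlapped. Its log2 fold change of knockout over wild-type embryos was 0.52 (SE 0.42, edgeR adjusted p = 0.731). The other 6 lay between 0.17 for ND3 and 0.60 for ND6. ND3 was at 215, 204, 301 and 239 RPM in knockout embryos, at 367, 27.8, 194 and 227 RPM in heterozygous embryos, and at 164, 315, 213 and 171 RPM in wild-type embryos. Its lowest value was again in the library labelled heterozygous 2, far below any other.

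ND6 is the 1 protein gene on the minus strand, opposite to the end of ND5, with which it shares 14 bases. It was at 354, 254, 441 and 457 RPM in knockout embryos, at 437, 106, 255 and 334 RPM in heterozygous embryos, and at 101, 318, 374 and 227 RPM in wild-type embryos. Strand was not used in counting, so transcripts of the plus strand across ND6 are part of these values. The ratio of ND6 to its plus-strand neighbour CYTB had geometric means of 0.134 in knockout, 0.113 in heterozygous and 0.122 in wild-type embryos. Exact two-sided permutation tests of the log2 ratio gave p = 0.314 for knockout against wild-type, p = 0.429 for knockout against heterozygous and p = 0.771 for heterozygous against wild-type, or 0.471, 0.514 and 0.771 adjusted over 6 tests. The differences were 0.14, 0.25 and -0.11 on the log2 scale.

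CYTB encodes cytochrome b, a subunit of complex III. It was at 3029.6, 1947, 3271 and 2921 RPM in knockout embryos and at 2589.7, 1403, 2548 and 2620.1 RPM in heterozygous embryos. In wild-type embryos it was at 934, 2094, 3204 and 1962 RPM. Knockout 2 was below 3 of the 4 wild-type embryos. The log2 fold change of knockout over wild-type embryos was 0.48 (SE 0.28, edgeR adjusted p = 0.655).

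The complex IV genes encode the 3 core subunits of cytochrome c oxidase, and COX1, its catalytic subunit, had the highest level of the 37 genes. COX1 was at 6462, 6518, 8350.4 and 7465 RPM in knockout embryos, at 7435, 5991, 6646 and 7201 RPM in heterozygous embryos, and at 2641, 5726, 7305 and 5726 RPM in wild-type embryos. All knockout and heterozygous embryos were above 3 of the 4 wild-type embryos, whereas wild-type 3 lay inside their range. Its log2 fold change of 0.46 in knockout against wild-type embryos (SE 0.22) had an edgeR adjusted p of 0.612. COX2 had a log2 fold change of 0.36, and COX3 of 0.18, with COX3 at 2176 ± 369 RPM in knockout, 2312 ± 664 RPM in heterozygous and 1941 ± 469 RPM in wild-type embryos (SD, n = 4 each).

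The complex V genes had log2 fold changes of 0.49 for ATP6 and 0.54 for ATP8 in knockout against wild-type embryos. ATP8 was at 736, 581, 865 and 771 RPM in knockout embryos, at 703, 450.2, 733 and 689.8 RPM in heterozygous embryos, and at 202, 626, 763 and 499 RPM in wild-type embryos. The ratio of ATP8 to ATP6, which share the bases shown above, stayed between 0.278 and 0.350 in the 12 embryos.

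Per kilobase of gene, the protein genes covered a several-fold range although most come from the same precursor. Medians over the 12 embryos, in RPM per kilobase of gene (RPKM), were 4260.3 for COX1, 3414 for ATP8, 3239 for ATP6, 2949 for ND1, 2725 for COX3, 2397 for COX2 and 2246 for CYTB. They were 1207 for ND2, 1047 for ND4, 833 for ND4L, 628 for ND6, 625 for ND5 and 615 for ND3. The ranges over embryos of all neighbours in this order overlapped, and ND6, ND5 and ND3 had nearly the same median. The rRNAs, which outnumber messenger RNAs in mitochondria, had medians of only 292 for mt-Rnr1 and 236 for mt-Rnr2 on this scale in poly(A)-selected RNA.

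Wild-type 1 and the library labelled heterozygous 2 had low protein-gene levels in different ways. In wild-type 1, 10 of the 13 protein genes had their lowest level of the 12 embryos, and COX1 still made up 28.8% of the protein-gene reads, within the 26.8 to 30.7% seen in the 10 other embryos. In the library labelled heterozygous 2, COX1 made up 40.6% of the protein-gene reads. Complex I genes made up 17.4% of them there, against 25.7 to 36.5% in the other 11 embryos. Its levels over the median of the 12 embryos, on the log2 scale, were -2.35 for ND1, -1.76 for ND2 and -2.95 for ND3, but -0.14 for COX1. The ratio of ND1 to COX1 was 0.0923 in that library and 0.329 to 0.480 in the others.

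Globin reads, from red blood cells, made up 8.64% of the counted reads in wild-type 1 and 0.519 to 5.03% in the 11 other embryos. Without wild-type 1, the median log2 fold change of the protein genes in knockout against wild-type embryos was 0.26 in place of 0.49, and without wild-type 3, the highest of its genotype, it was 0.76. Wild-type 1 shares the number 18 in its title with 1 knockout, 1 heterozygous and 1 other wild-type embryo, and the labels do not say what that number is. Among the 4 embryos numbered 18 the protein-gene share was 2.96% in the knockout embryo and 1.497% on average in the 2 wild-type embryos. Among the 4 embryos numbered 4 it was 2.13% in the knockout embryo and 2.32% on average in the 2 wild-type embryos, so the direction was not the same.

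**Figure D3:**
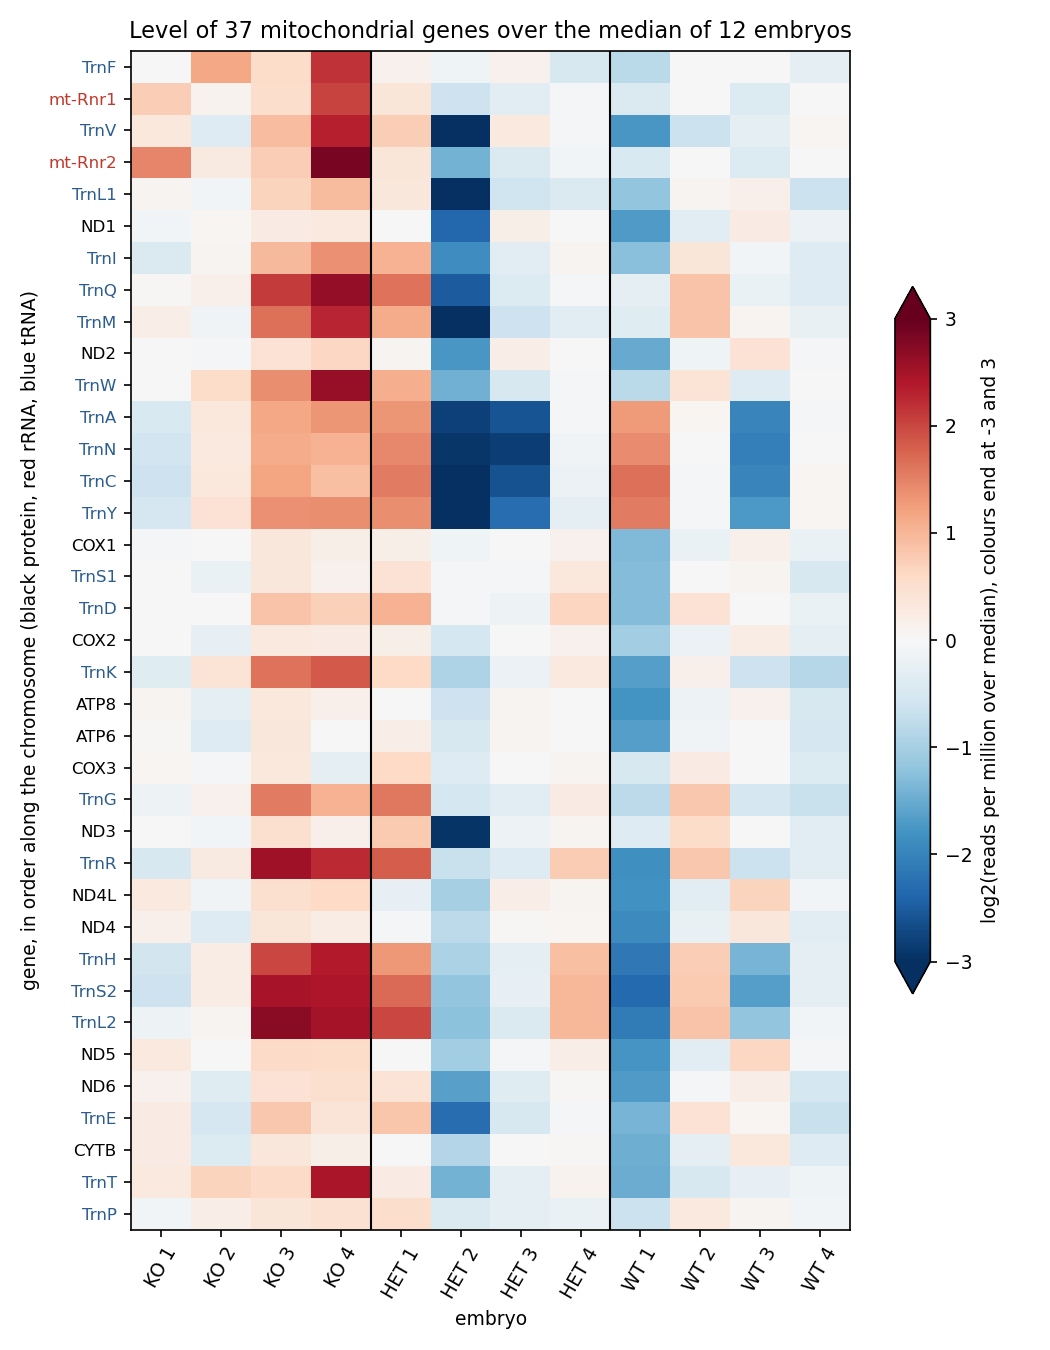
Level of each of the 37 genes in each embryo over that gene's median of the 12 embryos (log2 of RPM, colours end at -3 and 3), with genes in order along the chromosome and embryos grouped as knockout (KO), heterozygous (HET) and wild-type (WT). The column of wild-type 1 is low for nearly all protein genes but high for TrnA, TrnN, TrnC and TrnY. HET 2 is low from TrnV to TrnY and at ND3 (-2.95), but also at TrnE (-2.28), ND6 (-1.63), TrnT (-1.43) and other genes.

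The rRNAs form the core of the mitochondrial ribosome, and both were higher in all 4 knockout embryos than in all 4 wild-type embryos. The 12S rRNA of the small subunit, mt-Rnr1 (chrM:70-1024), was at 462, 301, 399 and 1143 RPM in knockout embryos, at 361, 181, 224 and 266 RPM in heterozygous embryos, and at 205, 276, 211 and 281 RPM in wild-type embryos. The 16S rRNA of the large subunit, mt-Rnr2 (chrM:1094-2675), was at 1032, 451, 623 and 2681 RPM in knockout embryos, at 479.8, 140.0, 276 and 352 RPM in heterozygous embryos, and at 274, 373, 282 and 374 RPM in wild-type embryos. Knockout 4 and knockout 1 were the highest of all 12 embryos for both rRNAs, and knockout 2 was close to the highest wild-type embryos for mt-Rnr1.

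In knockout against wild-type embryos the log2 fold change was 1.28 for mt-Rnr1 (SE 0.36, unadjusted p = 0.00305, edgeR adjusted p = 0.537). It was 1.92 for mt-Rnr2 (SE 0.49, unadjusted p = 0.00165, edgeR adjusted p = 0.537). DESeq2 gave adjusted p-values of 0.0492 for mt-Rnr1 and 0.0115 for mt-Rnr2. Against heterozygous embryos the log2 fold changes were 1.17 for mt-Rnr1 and 1.97 for mt-Rnr2 (edgeR adjusted p = 0.602 and 0.601), and DESeq2 called mt-Rnr2 alone, with an adjusted p of 0.0202. Between heterozygous and wild-type embryos they were 0.11 and -0.05.

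The size of these differences rested on knockout 1 and knockout 4. Without knockout 4 alone the median of the 2 rRNAs was 0.89 in place of 1.60. With both left out, a choice made after seeing the data, the log2 fold change of knockout over wild-type embryos was 0.52 for mt-Rnr1 and 0.71 for mt-Rnr2. Among the embryos numbered 4 the rRNA share of the knockout embryo was 1.31 times the wild-type mean, and among those numbered 18 it was 1.81 times, and neither of these knockout embryos is number 1 or 4 of its genotype. Knockout 1 and knockout 4 carry the numbers 14 and 15, which no wild-type embryo has. Against wild-type embryos that number and the genotype therefore cannot be told apart for either. The library labelled heterozygous 2, whose Mfsd12 level was inside the knockout range, also has the number 14. Its rRNA share was 0.0321%, against 0.149% in knockout 1.

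The nuclear RNAs Rn7sk and Rn7s1, which have no poly(A) tail, were also highest in knockout 1 and knockout 4. Rn7sk, the 7SK RNA that restrains a transcription elongation factor, was at 72.8, 19.3, 32.1 and 149 RPM in knockout embryos, at 45.4, 25.2, 5.71 and 19.2 RPM in heterozygous embryos, and at 20.5, 40.7, 4.54 and 14.9 RPM in wild-type embryos. Rn7s1, a 7SL RNA of the signal recognition particle, was at 76.4, 14.6, 40.5 and 172 RPM in knockout embryos, at 42.8, 14.1, 4.74 and 35.8 RPM in heterozygous embryos, and at 10.9, 22.1, 3.38 and 7.06 RPM in wild-type embryos. Knockout 2 was inside the wild-type range for both. Malat1, a nuclear-retained RNA, did not have the same 2 highest embryos. It was at 822 RPM in knockout 4, 418 RPM in the library labelled heterozygous 2 and 308 RPM in knockout 1. With Rn7sk as a covariate, chosen after seeing the data, the median log2 fold change of the rRNAs in knockout against wild-type embryos was 0.76 in place of 1.60, and that of the tRNAs 0.54 in place of 1.07. Lars2 was at 5424 RPM in knockout 1, 9835 RPM in knockout 4 and 980 to 1657 RPM in the other embryos. Gm26917 was at 22224 RPM in knockout 1, 52529 RPM in knockout 4 and 5810 to 16632 RPM in the others. Over the 12 embryos the Pearson r with the rRNA share, both on the log2 scale, was 0.93 for Lars2 and 0.89 for Gm26917. It was 0.81 for Rn7s1 and 0.76 for Rn7sk. The part of RNA make-up in the rRNA levels was not tested further.

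The 2 rRNAs did not move in proportion. The ratio of 16S to 12S reads was 2.23, 1.5001, 1.56 and 2.35 in knockout embryos, 1.33, 0.774, 1.23 and 1.32 in heterozygous embryos, and 1.34, 1.35, 1.34 and 1.33 in wild-type embryos. The wild-type ratios were nearly constant, every knockout ratio was above them, and every heterozygous ratio was just below them or lower. Geometric means were 1.87 in knockout, 1.14 in heterozygous and 1.34 in wild-type embryos.

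The log2 difference in this ratio was 0.48 for knockout against wild-type, 0.72 for knockout against heterozygous and -0.23 for heterozygous against wild-type embryos. Exact two-sided permutation tests gave p = 0.0286 for each pair, the smallest that 4 against 4 embryos allow, and 0.0571 adjusted over the 6 tests of gene ratios, so none passed the adjusted threshold. Without the library labelled heterozygous 2 the difference between heterozygous and wild-type embryos was -0.05. Without knockout 1 and knockout 4 the difference between knockout and wild-type embryos was 0.19. Among embryos numbered 4 the ratio was 1.5001 in the knockout embryo and 1.33 on average in the wild-type embryos, and among those numbered 18 it was 1.56 and 1.34.

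**Figure D4:**
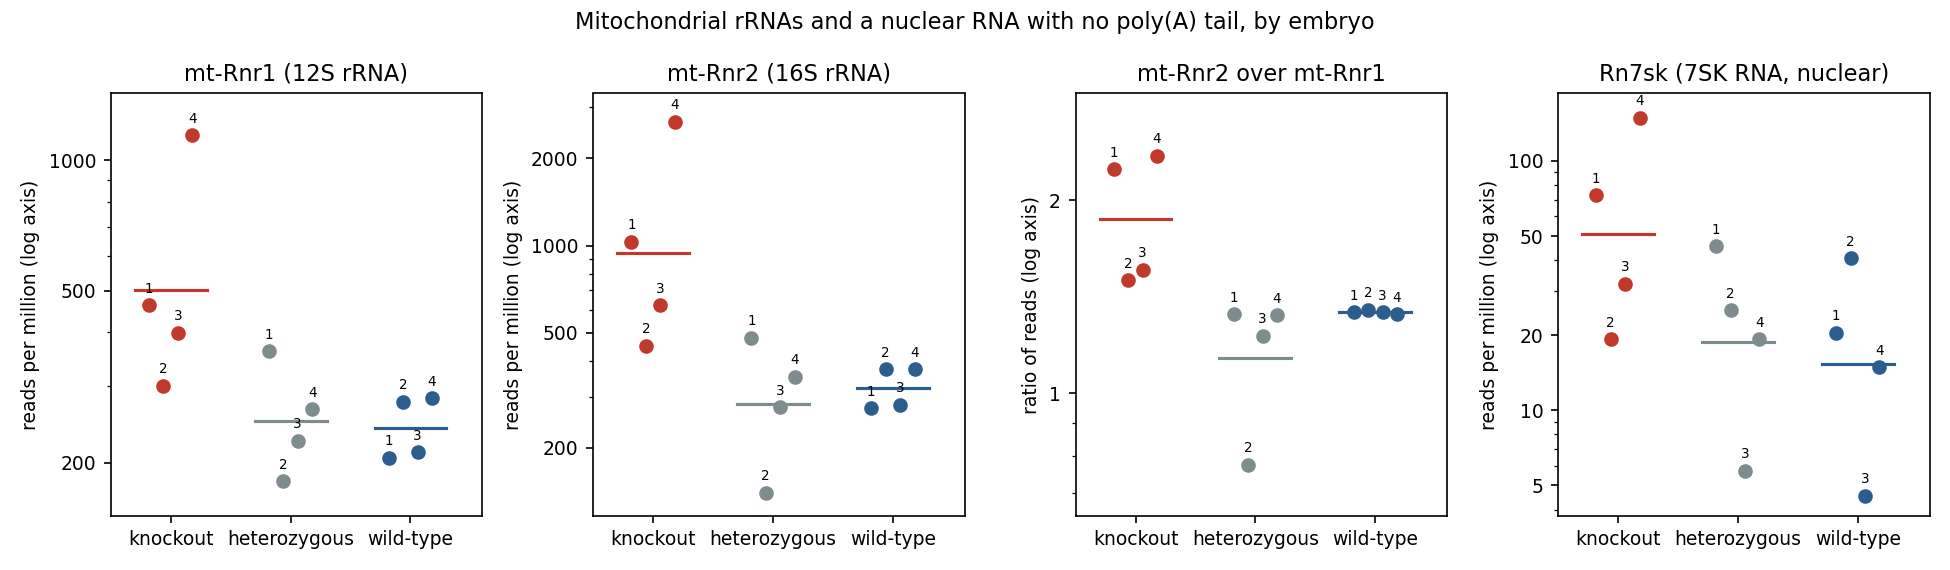
From left to right, levels (RPM) of mt-Rnr1 and mt-Rnr2, the ratio of 16S to 12S reads, and the level (RPM) of the nuclear 7SK RNA, on log axes; each point is 1 embryo with its number and each line a geometric mean of 4. For both rRNAs and their ratio all knockout points are above all wild-type points, with knockout 1 and knockout 4 highest; for 7SK the same 2 embryos are highest and knockout 2 and knockout 3 lie inside the wild-type range.

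Reads on the tRNA genes were few and unevenly spread, and 8 of the 22 genes, those on the minus strand, held 58.0 to 87.4% of them (median 72.0%). Mature tRNAs have no poly(A) tail, and a read that spans a tRNA and its neighbour was divided between them, so these values can include precursors and the ends of neighbouring messenger RNAs. Per kilobase, TrnS1 led with a median of 863 RPKM, followed by TrnL1 with 378, the proline tRNA TrnP with 305 and the glutamate tRNA TrnE with 297 RPKM. The lowest were the glutamine tRNA TrnQ with 10.4 RPKM and the valine tRNA TrnV, which lies between the rRNAs, with 3.06 RPKM. TrnV had 14, 10, 25 and 72 reads in knockout embryos, 23, 1, 14 and 12 in heterozygous embryos, and 4, 9, 11 and 12 in wild-type embryos.

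The tRNAs varied more between embryos than the protein genes did. The SD of log2 RPM over the 12 embryos had a median of 1.35 for the tRNAs, from 0.36 for TrnP to 1.60 for TrnC, and a median of 0.63 for the protein genes, from 0.32 for COX3 to 0.95 for ND3. Knockout 4 was the highest embryo for 11 of the 22 tRNAs and heterozygous 1 for 6. The lowest embryo was wild-type 1 for 11 tRNAs and the library labelled heterozygous 2 for the other 11.

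TrnS1 followed COX1, the gene whose end it overlaps. It was at 59.98, 51.8, 76.0 and 65.0 RPM in knockout embryos, at 80.0, 57.9, 57.8 and 74.1 RPM in heterozygous embryos, and at 24.2, 59.2, 63.3 and 42.5 RPM in wild-type embryos. It was not low in the library labelled heterozygous 2, and neither was COX1. The COX1 messenger RNA is known to run on past its reading frame across this tRNA, in the opposite sense, and the counting did not use strand. Its log2 fold change of knockout over wild-type embryos was 0.45 (SE 0.22, edgeR adjusted p = 0.618). In heterozygous against wild-type embryos it was 0.57, and TrnS1 was the 1 gene of the 37 with an unadjusted edgeR p under 0.05 in that comparison; its adjusted p was far above the threshold.

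TrnL1 was at 29.9, 26.7, 44.8 and 54.2 RPM in knockout embryos, at 35.7, 0.914, 18.7 and 21.0 RPM in heterozygous embryos, and at 12.4, 30.2, 31.4 and 17.99 RPM in wild-type embryos. The library labelled heterozygous 2, with 49 reads, was more than 10-fold below every other embryo. That low value stood in a run with TrnV, mt-Rnr2 and ND1 on either side, all of which were lowest in the same library. TrnE was at 24.1, 14.4, 35.9 and 26.8 RPM in knockout embryos, at 36.6, 4.22, 14.7 and 19.6 RPM in heterozygous embryos, and at 7.80, 27.4, 21.4 and 12.8 RPM in wild-type embryos. It too was lowest in that library.

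TrnA, TrnN, TrnC and TrnY, the minus-strand neighbours shown above, formed 1 block. Their summed level was 24.0, 43.8, 79.7 and 77.0 RPM in knockout embryos, 95.0, 4.46, 5.67 and 31.9 RPM in heterozygous embryos, and 97.7, 34.9, 8.95 and 35.3 RPM in wild-type embryos. For each of the 4 genes the lowest 3 embryos were the library labelled heterozygous 2, heterozygous 3 and wild-type 3, and the highest 4 were knockout 3, knockout 4, heterozygous 1 and wild-type 1. The order of the embryos was thus not the order of the genotypes.

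Wild-type 1, the embryo with the lowest level of 10 protein genes, had the highest sum of the block. The block made up 58.9% of the tRNA reads there, against 4.29 to 28.6% in the other 11 embryos. Heterozygous 3 and wild-type 3, which had protein-gene shares near or above the median, were more than 10-fold below heterozygous 1 and wild-type 1. In knockout against wild-type embryos the log2 fold changes of the 4 genes were 0.11 for TrnC to 0.48 for TrnA, with standard errors of 0.82 to 0.89 (edgeR adjusted p = 0.870 to 0.977). TrnC had the smallest estimate of the 22 tRNAs, and its sign turned when knockout 3, knockout 4, wild-type 2, wild-type 3 or wild-type 4 was left out. Without wild-type 1 it was 1.07.

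A second block was TrnH, TrnS2 and TrnL2, the plus-strand tRNAs for histidine, serine and leucine between ND4 and ND5. It followed the first block in part (Pearson r = 0.49 between the log2 sums over the 12 embryos). Its summed level was 3.29, 5.09, 22.9 and 24.1 RPM in knockout embryos, 13.9, 2.13, 3.65 and 8.66 RPM in heterozygous embryos, and 0.993, 7.70, 1.70 and 3.84 RPM in wild-type embryos. Knockout 3, knockout 4 and heterozygous 1 were the highest embryos for each of the 3 genes, and wild-type 1 the lowest. That order was not particular to this block. The same 3 embryos were the highest for TrnV, TrnL1, TrnI, TrnQ, TrnM, TrnW, TrnD, TrnK, TrnG and TrnP. Wild-type 1 was the lowest embryo for 11 of the 22 tRNAs. In knockout over wild-type embryos the log2 fold changes of the 3 block genes were among the largest of the 37. They were 2.09 for TrnS2 (SE 0.81), 2.07 for TrnL2 (SE 0.82) and 1.90 for TrnH (SE 0.72). Their edgeR adjusted p-values were 0.567, 0.573 and 0.554, and the knockout range of each held wild-type values. TrnR, the arginine tRNA next to ND3, followed the 3 genes closely (Pearson r of 0.976 to 0.985 on log2 RPM) and had the same 3 highest embryos. Its log2 fold change was 1.88 (SE 0.73, edgeR adjusted p = 0.566).

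TrnT was at 2.35, 3.02, 2.86 and 10.5 RPM in knockout embryos, at 2.26, 0.709, 1.56 and 2.06 RPM in heterozygous embryos, and at 0.677, 1.38, 1.61 and 1.76 RPM in wild-type embryos. Every knockout embryo was above every heterozygous and every wild-type embryo, and knockout 4 was far above the rest. On the CPM scale this held for 1.51% of all genes against heterozygous and for 1.6% against wild-type embryos. The gap to the heterozygous embryos was small, from 2.26 RPM in heterozygous 1 to 2.35 RPM in knockout 1. The log2 fold change of TrnT was 1.85 in knockout against wild-type embryos (SE 0.51, edgeR adjusted p = 0.537, DESeq2 adjusted p = 0.0399). It was 1.53 in knockout against heterozygous embryos (SE 0.51, edgeR adjusted p = 0.617). TrnP, its minus-strand neighbour, was at 24.3 ± 3.84 RPM in knockout, 19.7 ± 6.44 RPM in heterozygous and 19.7 ± 4.95 RPM in wild-type embryos (SD, n = 4 each), the narrowest spread of the tRNAs.

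**Figure D5:**
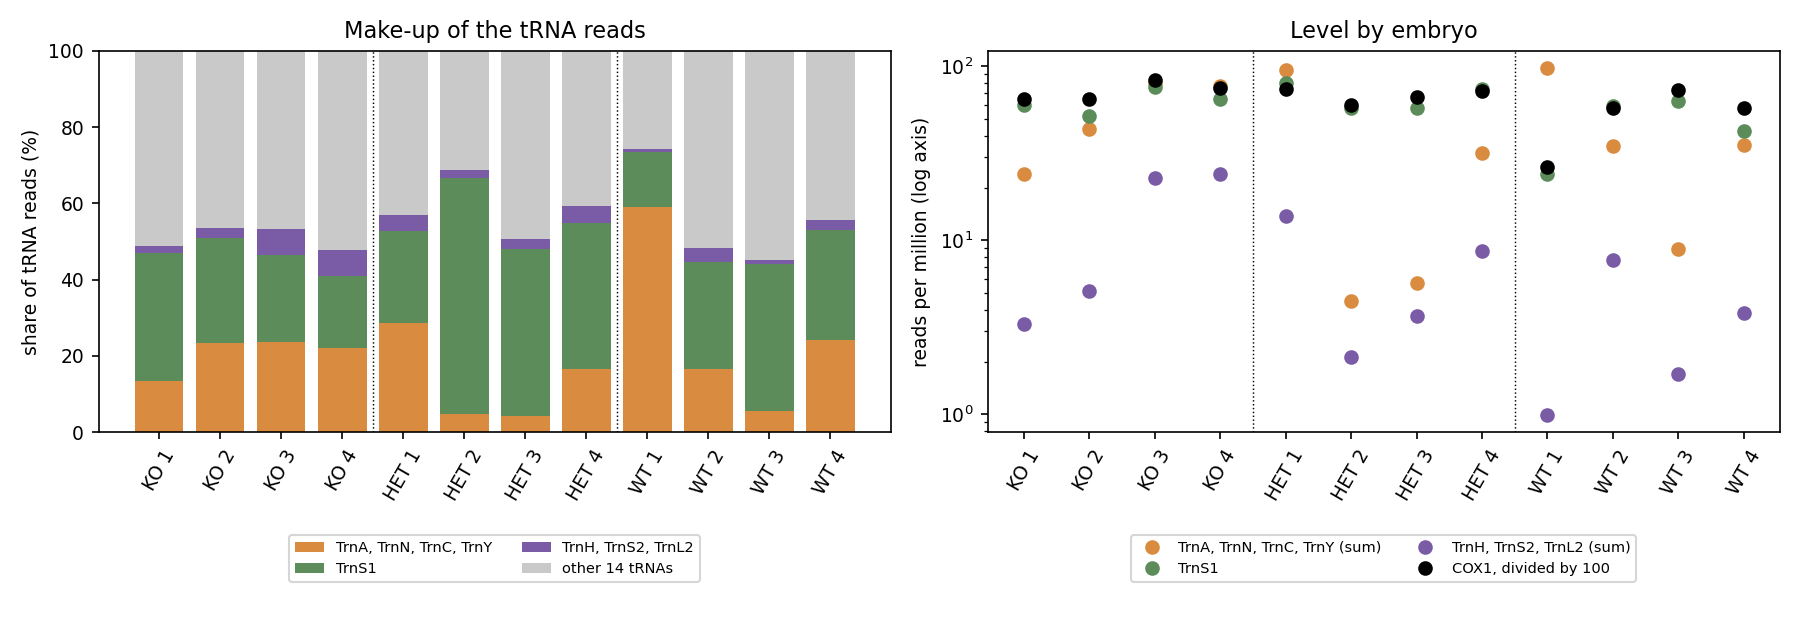
Left, share of tRNA reads (%) in each embryo that fell on TrnA, TrnN, TrnC and TrnY, on TrnS1, on TrnH, TrnS2 and TrnL2, and on the other 14 tRNAs; right, levels in RPM on a log axis, with COX1 divided by 100. TrnS1 stays beside COX1 in all 12 embryos, whereas the block of TrnA to TrnY ranges from 4.46 RPM in HET 2 to 97.7 RPM in WT 1.

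In knockout against heterozygous embryos 34 of the 37 genes had an estimate above 0, against 49.9% of all genes, and edgeR called 0 (0% of all genes), with 5 higher at an unadjusted p under 0.05 against 3.61% of all genes. DESeq2 called 1, mt-Rnr2, against 0.316% of its genes. The exceptions in direction were COX3, TrnS1 and TrnD, the aspartate tRNA. On the CPM scale every knockout embryo was above every heterozygous embryo for 2 of the 37, mt-Rnr2 and TrnT, against 1.51% of all genes, and for mt-Rnr2 the lowest knockout value was 461 CPM and the highest heterozygous value 458 CPM, with overlap on the RPM scale. Without the library labelled heterozygous 2 the median log2 fold change was 0.09 in place of 0.25 for the protein genes, 1.41 in place of 1.57 for the rRNAs and 0.67 in place of 0.98 for the tRNAs. Without knockout 4 the median was 0.85 for the rRNAs and 0.57 for the tRNAs, and without heterozygous 1 it was 1.55 for the tRNAs.

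In heterozygous against wild-type embryos 29 of the 37 had an estimate above 0, against 48.4% of all genes. EdgeR called 0 (0% of all genes), DESeq2 called 0 (0.0194% of its genes) and voom called 0. Every heterozygous embryo was above every wild-type embryo for 0 of the 37, against 0.433% of all genes, and below for 0, against 0.443%. The medians on the log2 scale were 0.21 for the protein genes, 0.03 for the rRNAs and 0.27 for the tRNAs. Without the library labelled heterozygous 2 they were 0.37, 0.19 and 0.55, in the same order. Without heterozygous 1 they were 0.11, -0.18 and -0.075. The median of the protein genes was -0.03 without wild-type 1 and 0.43 without wild-type 3. The 4 genes of the TrnA to TrnY block, with TrnL1, TrnM, ND3 and mt-Rnr2, were the 8 below 0.

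Against the mean of both other genotypes, which uses the same knockout embryos again, all 37 genes had an estimate above 0, against 50.8% of all genes. EdgeR called 0 of the 37 in knockout embryos against 0.00481% of all genes, and voom called 0 against 0.0193%. DESeq2 called 4 (mt-Rnr2, mt-Rnr1, TrnT and TrnF) against 1.43% of its genes. The log2 fold changes were 1.94 for mt-Rnr2 (edgeR adjusted p = 0.181) and 1.22 for mt-Rnr1 (edgeR adjusted p = 0.204), and the median of both was 0.87 without knockout 4. Without knockout 3, edgeR called mt-Rnr2 in this comparison (adjusted p = 0.0360).

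The nuclear genes that make, process and use mitochondrial RNA were read from the same fit, and 0 of any list passed the adjusted edgeR threshold in knockout against wild-type embryos. Of 22 genes for mitochondrial RNA processing and stability, 17 had an estimate above 0 (77.3%), against 51.3% of all genes. Their median log2 fold change was 0.12, against 0.01 for all genes. Trmt10c, a subunit of the enzyme that cuts the 5′ ends of mitochondrial tRNAs, was at 37.3 ± 5.52 CPM in knockout, 29.2 ± 4.17 CPM in heterozygous and 27.0 ± 3.37 CPM in wild-type embryos (SD, n = 4 each). Every knockout embryo was above every wild-type embryo for it, as for 1.6% of all genes. That gap was small: its lowest knockout value was 32.4 CPM and its highest wild-type value 31.1 CPM. Its log2 fold change was 0.47 (SE 0.16, unadjusted p = 0.0111, edgeR adjusted p = 0.537). It was picked from the 22 genes as the one that this test ranked first. Hsd17b10, another subunit of that enzyme, was at 112.0 ± 12.9 CPM in knockout embryos, against 144.0 ± 71.5 CPM in wild-type ones. Trnt1, which adds CCA to tRNAs, was at 75.9 ± 7.40 CPM in knockout embryos, against 64.4 ± 5.81 CPM in wild-type ones, in a list of 21 modification genes of which 12 were above 0.

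The counts of estimates above 0 below stand beside 51.3% of all genes. Of 11 genes of mitochondrial transcription, 7 were above 0 (63.6%). Tfam was at 92.8 ± 11.8 CPM in knockout, 77.2 ± 9.68 CPM in heterozygous and 80.6 ± 5.26 CPM in wild-type embryos (log2 fold change of knockout over wild-type 0.20, unadjusted p = 0.154 in edgeR). Of 14 genes for replication and upkeep of mitochondrial DNA, 11 were above 0, with Polg, the replicative polymerase, at 68.1 ± 8.09 CPM in knockout embryos, against 58.4 ± 8.60 CPM in wild-type ones. Of 10 regulators of mitochondrial biogenesis, 9 were above 0, with Myc at 40.6 ± 18.6 CPM in knockout embryos, against 24.2 ± 4.14 CPM in wild-type ones. Of 16 translation factors 7 were above 0, and of 16 markers of mitochondrial mass 12 were above 0, with the chaperone Hspd1 at 722 ± 219 CPM in knockout embryos, against 499.6 ± 114 CPM in wild-type ones. Several of these counts turned on 1 embryo. Without knockout 2, 6 of the 16 mass markers were above 0 and 10 below, and 10 of the 21 modification genes were above 0. Without wild-type 1, 13 of the 16 translation factors were above 0. Without wild-type 2, 5 of the 11 transcription genes were above 0.

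The nuclear subunits of the respiratory chain and ATP synthase went the other way from the mitochondrial ones, and this turned on 1 embryo. Of 81 such genes, 73 had an estimate below 0 in knockout against wild-type embryos, with a median log2 fold change of -0.20. Of 82 mitochondrial ribosomal proteins, 62 were below 0, with a median of -0.11. Estimates above 0 made up 9.88% and 24.4% of these lists, against 51.3% of all genes. Without wild-type 1, 58 of the 81 were above 0 with a median of 0.08, and 74 of the 82 were above 0 with a median of 0.11. Ndufb10, a complex I subunit, was at 63.1, 68.2, 57.8 and 62.7 CPM in knockout embryos, at 78.5, 75.1, 64.7 and 59.97 CPM in heterozygous embryos, and at 151, 86.5, 54.0 and 62.2 CPM in wild-type embryos. Only wild-type 1 stood far from the rest.

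The reads on the 13 mitochondrial protein genes were set over the reads on the 81 nuclear subunits in each embryo. The ratio was 2.41, 1.88, 2.70 and 2.84 in knockout embryos, 2.07, 1.33, 2.44 and 2.29 in heterozygous embryos, and 0.571, 1.70, 2.99 and 1.90 in wild-type embryos. The lowest was wild-type 1 and the highest wild-type 3, so the wild-type embryos spanned the values of both other genotypes. The ratio is a score over chosen genes and was not tested.

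Among 10414 nuclear genes with a mean of at least 10 CPM, those whose log2 CPM over the 12 embryos was most like that of the summed protein genes were Mfsd4a and Gm6158, each with a Pearson r of 0.904. The most opposite were Mylk3 with -0.925 and Jmjd7 with -0.921, and the nuclear complex I subunit Ndufv1 was among the 5 most opposite, with -0.910. These are extremes of many genes over 12 embryos and share the low value of wild-type 1.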

How the data were processed

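Estimated counts per gene, with no normalization, are what the authors deposited, in 1 table for the 12 embryos. The counter was featureCounts 2.0.6 with the GRCm39 RefSeq annotation, per the file headers. It counted mates singly, ignored strand, and divided a read that fell on several genes or places among them. The submitters' processing notes also list DRAGEN, with no step given for it. Spike-in rows numbered 0.

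Counts were rounded. Genes were filtered with filterByExpr, scaled by TMM factors and tested with edgeR 4.0.16 (robust quasi-likelihood, all 12 embryos, 1 mean per genotype) in R 4.3.3, with Benjamini-Hochberg adjustment over 20771 genes and a threshold of 0.05. DESeq2 1.42.0 and limma 3.58.1 were alternatives. Gene ratios were compared by exact two-sided permutation tests (70 arrangements). The tests were checked on simulated counts. Members and gene lists were chosen with earlier results of these data known. All members could be named. From each nuclear list the 2 most abundant genes and the 2 with the smallest p could be named, and the 5 nuclear genes most and least like the summed protein genes.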

Additional observations from a re-analysis of the deposited data

Results flagged for a closer look

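A library was picked out where its gap to the nearest of the other 3 of its genotype exceeded Dixon's 95% critical value. This held for 7 of 129 tested groups of 4, and chance alone gives about 6.45, or 1 in 20. In the library labelled heterozygous 2, ND1 (553 RPM), ATP8 (450.2 RPM), ND4 (833 RPM) and CYTB (1403 RPM) were far below the other 3 heterozygous embryos. In wild-type 2, TrnQ (1.33 RPM) and TrnG (7.16 RPM) were far above the other 3 wild-type embryos. In knockout 4, TrnT (10.5 RPM) was far above the other 3 knockout embryos.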

How the results depend on the processing

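Directions held under most settings. The choice of test moved the counts of genes called from 0 to 3 (knockout against wild-type), 1 (knockout against heterozygous) and 4 (knockout against the mean of both others) under DESeq2. Leaving out single embryos gave 0 to 1 in the last comparison, with 1 without knockout 3, and 0 in the other comparisons. The fold change of ND3 (knockout over wild-type, log2) was -0.023 with Rn7sk as a covariate. That of TrnC was -0.73 with that covariate and -0.24 (without wild-type 3) to 1.07 (without wild-type 1) with 1 embryo left out. The log2 difference in ND6 over CYTB between heterozygous and wild-type embryos was -0.31 to 0.082 with 1 embryo left out, above 0 without the library labelled heterozygous 2. Without knockout 4, heterozygous 2 and wild-type 1 it was 0.023, and between knockout and heterozygous embryos it was -0.021. The cause was not tested. Across 24 alternatives the log2 fold change of knockout over wild-type was 0.52 to 1.49 for mt-Rnr1 and 0.71 to 2.19 for mt-Rnr2, with edgeR, voom or DESeq2 adjusted p-values of 0.0492 to 0.9998 and 0.0115 to 0.9998. Without knockout 4 alone the difference in rRNA share between knockout and wild-type embryos was 0.0520 percentage points in place of 0.120. With the first number of the titles as a block, edgeR called 0 of the 37 genes in each comparison, and the median log2 fold change of the rRNAs in knockout against wild-type embryos was 0.90. Knockout 4 and heterozygous 3 have a number to themselves and added nothing to that fit. No scaling moved the median of all genes by 0.1. Settings that leave out several embryos or use Rn7sk were chosen after seeing the data. Depth limited TrnV, with 1 to 72 reads per embryo, more than any other gene.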
